A study of Mus musculus with 11 samples.

Results

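Inherited risk of Alzheimer's disease falls in large part on genes that microglia, the resident macrophages of the brain, transcribe. 10 of them, Inpp5d, Trem2, Tyrobp, Plcg2, Bin1, Picalm, Abi3, Cd33, Spi1 and Sorl1, were taken by their symbols from the 31053 genes counted in single nuclei of mouse cortex, and each was found exactly once. Their levels were set out by cell type, to see which belonged to microglia and which were shared, and then across genotypes that raised or lowered NF-κB signalling in microglia. Cortical nuclei of 11 mice, all labelled female, although the study's methods name males for its RNA sequencing, and aged 8.39 to 10.85 months, were sequenced with 1 library per mouse. Non-transgenic mice (ikbkb+/+, n = 4) had intact Ikbkb, the gene for the kinase IKKβ that switches NF-κB on. P301S mice (ikbkb+/+;P301S+, n = 3) had on top of this a transgene of human tau bearing the mutation P301S, which the prion promoter drives mostly in neurons. Knockout P301S mice (ikbkb-/-;P301S+, n = 2) had lost Ikbkb, and active IKKβ P301S mice (ikbkbCA;P301S+, n = 2) expressed constitutively active IKKβ, both through a tamoxifen-dependent Cre placed in 1 copy of Cx3cr1. That Cre acts in microglia and other Cx3cr1-expressing cells, and it takes the place of that Cx3cr1 copy, whereas the mice of the other 2 groups had floxed alleles, no Cre and both copies. The study's methods gave tamoxifen to controls as well. The titles name 2 breeding lines, a floxed Ikbkb line (non-transgenic mice 1 and 2, P301S mice 1 and 2 and both knockout mice) and an active IKKβ line (non-transgenic mice 3 and 4, P301S mouse 3 and both active IKKβ mice), so knockout and active IKKβ mice differ in line as well as genotype, and line can be adjusted for only through the other 2 groups.

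Some of these proteins act in 1 signalling chain of the myeloid cell. TREM2 is a surface receptor for lipids and lipoproteins that signals through the adaptor TYROBP (DAP12). Downstream, PLCγ2, the product of Plcg2, cleaves membrane phosphoinositides, and SHIP1, the product of Inpp5d, removes a phosphate from the lipid that PI3-kinase makes and so restrains the same signal. CD33 is a sialic acid-binding receptor of the Siglec family, ABI3 is a subunit of the WAVE complex that builds branched actin, and PU.1, the product of Spi1, is the transcription factor on which the myeloid lineage depends. The other 3 act on membrane traffic. PICALM assembles clathrin coats, BIN1 is a membrane-bending protein of the amphiphysin family with neuronal, muscle and ubiquitous isoforms, and SORL1 is a sorting receptor that returns cargo such as the amyloid precursor protein from endosomes to the Golgi.

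PU.1 binds purine-rich sites with an ETS core, so the 250 bases before the RefSeq start were read on both strands for the letters GAGGAAGT, a high-affinity form of that site, for the 6 genes with an entry in the promoter table. Of 32851 such promoters, 2.44% held it. The shorter core GGAA lies inside it and occurred in 93.4% of promoters, so it sets no gene apart. 3 promoters are shown 5′ to 3′ on the gene's strand, from RefSeq on GRCm38.p6, with GAGGAAGT in capitals, because they stand for a microglial gene that holds the letters, a microglial gene that does not, and a gene shared by all types.
Inpp5d: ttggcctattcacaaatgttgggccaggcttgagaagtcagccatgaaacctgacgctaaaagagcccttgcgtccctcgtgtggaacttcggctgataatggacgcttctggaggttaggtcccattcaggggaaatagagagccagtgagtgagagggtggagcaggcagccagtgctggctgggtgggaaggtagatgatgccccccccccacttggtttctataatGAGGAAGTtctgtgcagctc
Trem2: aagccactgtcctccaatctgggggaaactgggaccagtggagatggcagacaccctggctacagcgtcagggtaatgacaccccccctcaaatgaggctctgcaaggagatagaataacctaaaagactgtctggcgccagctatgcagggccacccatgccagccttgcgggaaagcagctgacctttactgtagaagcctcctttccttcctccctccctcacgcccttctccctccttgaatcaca
Picalm: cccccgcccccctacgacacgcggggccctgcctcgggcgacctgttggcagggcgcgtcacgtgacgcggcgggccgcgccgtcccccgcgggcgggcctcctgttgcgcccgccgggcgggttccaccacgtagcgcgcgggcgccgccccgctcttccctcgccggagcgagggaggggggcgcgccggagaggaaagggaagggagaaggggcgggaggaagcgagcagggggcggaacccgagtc
The Inpp5d stretch is chr1:87620062-87620311 (+) and has the letters once, their first base at position -20 from the start, where -1 is the base before it. The Trem2 stretch is chr17:48346151-48346400 (+) and the Picalm stretch chr7:90129963-90130212 (+), in which 79.2% of bases were G or C against 54.4% for Inpp5d and 56.0% for Trem2. Plcg2, Cd33 and Sorl1 had no GAGGAAGT in this window either. A match is a string of letters and not a measured binding site, and its absence from 250 bases says nothing about PU.1 elsewhere in the gene.

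After filters and removal of doublets, 103065 of 114118 barcodes were used, from libraries of 72007219 to 93205362 UMIs (unique molecular identifiers, each 1 captured RNA molecule). 4400 nuclei (4.27%) were microglia-like, 187 to 721 per mouse, with 384498 to 1625905 UMIs per mouse. They came from a cluster made without the 10 genes, and 13 of 14 microglia markers were raised in it. The exception was Itgam, listed at 2 UMIs in all. 88 nuclei led by T-cell genes were set apart. Because nuclei of a mouse are not replicates, UMIs were summed per mouse and type and given as CPM (counts scaled to 1e6 UMIs of that type), as mean ± SD over 11 mice, or over 10 for endothelial nuclei, which 1 mouse lacked. Nothing in the labels says more on how the mice were drawn, so errors describe the spread between these animals. Of 110968 barcode sequences, 1556 occurred in at least 2 libraries. In the microglia-like nuclei Ikbkb was lowest in the knockout mice, at 110.3 and 115 CPM against 124 to 165 CPM in the other 9. Where its reads lie relative to the deleted part was not examined, so they do not check the deletion.

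8 of the 10 genes had their highest level in microglia-like nuclei, and for 7 of these, all but Picalm, the level in neurons, astrocytes and oligodendrocytes was at most 1.52% of that in microglia. Inpp5d led at 2459 ± 321 CPM and was followed by Bin1 at 767 ± 124 CPM, Picalm at 619 ± 105 CPM and Plcg2 at 409 ± 46.0 CPM. Abi3 reached 323 ± 61.6 CPM and Spi1 268 ± 54.7 CPM. Cd33 stood at 174 ± 17.4 CPM, Trem2 at 156 ± 28.3 CPM, Sorl1 at 76.5 ± 17.9 CPM and Tyrobp at 58.4 ± 12.6 CPM. In this order Inpp5d was above all the rest in every mouse. Picalm and Plcg2, and Trem2 and Sorl1, were neighbours whose ranges over the mice did not overlap, while the ranges of the remaining neighbours below Inpp5d did.

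Unspliced transcripts were counted, so a long gene can collect more UMIs, and levels are also given per kilobase of gene span. The kit reads 3′ ends, and the part of the UMIs that grows with span was not separated. Which scale compares genes better was not tested. On that scale Abi3 (26.1 CPM per kb), Inpp5d (24.5), Trem2 (20.2), Tyrobp (15.3) and Bin1 (13.1) came first. Cd33 had 8.63, Spi1 8.02, Picalm 7.44, Plcg2 2.99 and Sorl1 0.479 CPM per kb. Inpp5d spans 100.2 kb (chr1:87620312-87720507), Trem2 7.75 kb (chr17:48346401-48354147), Tyrobp 3.83 kb (chr7:30413760-30417585) and Sorl1 159.6 kb (chr9:41964720-42124297, all on GRCm38). The receptor and its adaptor, which ranked low in CPM, thus ranked among the first 4 per kilobase, while Sorl1 was last. No member overlapped a gene on its own strand. Plcg2, Bin1, Abi3 and Sorl1 overlap genes on the opposite strand.

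**Figure D1:**
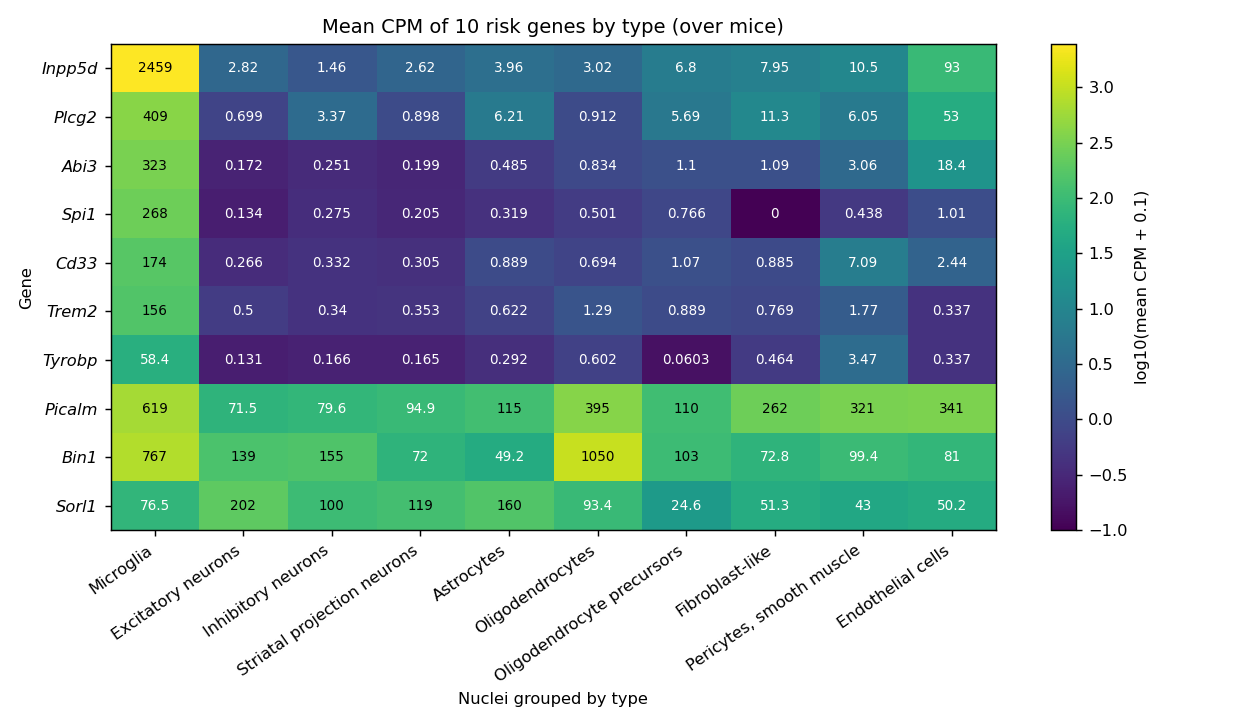
Mean CPM of the 10 genes (vertical axis) in 10 types of nuclei (horizontal axis), each cell printing the mean over mice on a logarithmic colour scale. The upper genes are low outside microglia, with the highest values in endothelial nuclei (93.0 CPM for Inpp5d, 53.0 for Plcg2 and 18.4 for Abi3), while Picalm, Bin1 and Sorl1 are seen in every column, with Bin1 at 1050.4 CPM in oligodendrocytes and Sorl1 at 202 CPM in excitatory neurons.

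Droplets also take up free RNA, so a trace of a microglial gene in another type need not come from that type. The background was read from 13 microglia markers that are not among the 10 genes. Their level in another type, as a percentage of the microglial level, reached at most 0.970% in excitatory neurons, 1.18% in oligodendrocyte precursors, 2.22% in astrocytes, 2.52% in endothelial nuclei and 2.78% in fibroblast-like nuclei. Trem2 and Spi1 were above the highest marker in none of 9 other types. Among finer clusters, however, Trem2 was at 3.87 ± 3.38 CPM (0 to 10.4 CPM, 56 UMIs) in 927 excitatory nuclei led by Col24a1 and Nr4a2, a cluster singled out after its values were seen, and at 0.0958 to 0.619 CPM in the other excitatory clusters. The level of the markers was not computed for that cluster, where Inpp5d was at 2.95 CPM and Spi1 at 0.378 CPM. Inpp5d, Plcg2, Abi3, Cd33 and Tyrobp were above the highest marker of a type in 1 or 2 of the 9 types, and Bin1, Picalm and Sorl1 in all 9. These markers give no background for RNA from other sources. For Bin1 and Sorl1, which were highest outside microglia, being above them thus does not place the gene in a type.

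For the signalling genes, the exceptions lay in vascular nuclei and, for Plcg2, also in oligodendrocyte precursors. Inpp5d was at 1.46 to 10.5 CPM in 8 types but at 93.0 ± 48.9 CPM in endothelial nuclei (116 UMIs, n = 10), which is 3.78% of its microglial level. Plcg2, the phospholipase, was at 53.0 ± 41.2 CPM there (68 UMIs, 12.97% of microglia) and at 5.69 ± 2.13 CPM in oligodendrocyte precursors (81 UMIs, 1.39%). The precursors stand out because their highest marker was low (1.18%). Plcg2 was higher in fibroblast-like nuclei (11.3 CPM, 2.76%), astrocytes (6.21 CPM, 1.52%) and pericytes (6.05 CPM, 1.48%), where the highest markers were at 2.78%, 2.22% and 2.35%. Abi3 was at 18.4 ± 12.6 CPM in endothelial nuclei (19 UMIs, 5.68%). Each of these 3 genes was listed at 0 in at least 1 of the 10 mice, and only 403 endothelial nuclei were found in all. The pericyte values of Cd33 (9 UMIs, 4.06%) and Tyrobp (4 UMIs, 5.94%) rested on too few molecules to place them in that type. Trem2 had 3 UMIs there and 1 in endothelial nuclei. Spi1 had 0 UMIs in 1001 fibroblast-like nuclei, where a count of 0 allows up to 3 UMIs.

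At a fixed depth of 1000 UMIs per nucleus the same genes differed in how many microglia-like nuclei held a UMI. Inpp5d was seen in 87.3% of nuclei (97.1% unthinned), Plcg2 in 33.0% (53.8%), Abi3 in 27.2% (46.2%) and Spi1 in 22.6% (40.3%). Cd33 was seen in 16.5% (28.9%), Trem2 in 14.1% (27.1%) and Tyrobp in 5.18% (11.2%). In excitatory neurons, which should lack them, the thinned share was 0.301% for Inpp5d and 0.0632% or less for the other 6. Median depth was 1443 to 2484 UMIs per mouse in microglia-like nuclei and 9018 to 14546.5 in excitatory neurons, and thinning left out 5, 18, 3 and 3 microglia-like nuclei of the non-transgenic, P301S, knockout and active IKKβ mice. A nucleus without a Trem2 or Tyrobp UMI is thus the usual case at this depth and does not mark a nucleus without the transcript.

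The 3 genes of membrane traffic were counted in all types, in different orders. How far their lower levels come from RNA of other types was not tested. Picalm was highest in microglia-like nuclei at 619 CPM, then in oligodendrocytes at 395 ± 36.5 CPM, endothelial nuclei at 341 ± 98.3 CPM, pericytes and smooth muscle at 321 ± 85.0 CPM and fibroblast-like nuclei at 262 ± 43.0 CPM. Among the last 4 each overlapped in range with the next, and oligodendrocytes lay below microglia in every mouse. It was lower in astrocytes (115 ± 7.59 CPM), oligodendrocyte precursors (110 ± 10.5 CPM), striatal projection neurons (94.9 ± 10.5 CPM), inhibitory neurons (79.6 ± 5.23 CPM) and excitatory neurons (71.5 ± 5.06 CPM). Bin1 was highest in oligodendrocytes at 1050.4 ± 83.9 CPM (926 to 1158), above microglia at 767 CPM (611 to 979). These ranges overlapped, but within a mouse the microglial level was 54.6% to 84.5% of that in oligodendrocytes, so it was lower in all 11. All other types held less Bin1, from 155 ± 20.4 CPM in inhibitory and 139 ± 16.1 CPM in excitatory neurons to 49.2 ± 5.55 CPM in astrocytes.

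Sorl1 had its highest levels in neurons and astrocytes. It was at the top in excitatory neurons at 202 ± 44.4 CPM, followed by astrocytes at 160 ± 21.3 CPM, striatal projection neurons at 119 ± 24.6 CPM, inhibitory neurons at 100.2 ± 9.78 CPM and oligodendrocytes at 93.4 ± 11.5 CPM. Microglia came in rank 6 at 76.5 CPM, and oligodendrocyte precursors had the lowest level at 24.6 ± 8.17 CPM. With fibroblast-like, endothelial and pericyte nuclei, at 43.0 to 51.3 CPM, placed between the last of these, each type overlapped in range with the next. Among finer clusters of excitatory neurons Sorl1 ranged widely, with 436 ± 54.3 CPM in a cluster of 1241 nuclei led by Erg, 402 ± 68.7 CPM in one led by Scn7a and 309 ± 62.9 CPM in one led by Il1rapl2. At the low end were 81.4 ± 11.8 CPM in a cluster led by Ctgf and 59.0 ± 13.8 CPM in the one led by Col24a1 and Nr4a2, close to or below the microglial level.

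The microglial level of Sorl1 has to be set beside the neuronal RNA that the same nuclei held. 12 transcripts of neurons stood in microglia-like nuclei at 18.6% to 51.6% of their excitatory CPM (median 28.7%). Sorl1, at 37.8% over all mice, lay inside that range. By mouse it was above all 12 in non-transgenic mouse 1 and P301S mice 1 and 3, above 9 to 11 of them in 5 mice, and above 1 or 2 in non-transgenic mouse 4 and both active IKKβ mice. The part of that background in its UMIs was not tested, whereas Bin1 (551%) and Picalm (866%) were far above it. 7 astrocyte transcripts were at 1.13% to 9.44% of their astrocyte level, and 7 oligodendrocyte transcripts at 1.43% to 3.38% of theirs.

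Genes most alike in pattern were ranked by Pearson's r of log2(CPM + 1) over 109 sums of a mouse and a type, among 15656 genes, as a description. The sums share libraries and differ in depth. Inpp5d and Abi3 were each other's nearest gene (r = 0.918), followed for Inpp5d by Stab1 and Irf5 and for Abi3 by Naip2 and Il21r. Spi1 was nearest to Parvg (0.979), Myo1g and Themis2, and Trem2 to Arhgap9 (0.957), Mpeg1 and Siglech. Cd33 was nearest to Cd48 (0.903), Clec5a and Fcgr1, Tyrobp to Gm32591 (0.920), Sash3 and Pld4, and Plcg2 to Tnfrsf1b (0.868), Slc7a7 and Srgap2. Picalm was nearest to Rap1a (0.906), Rasgrp3 and Wasf2, and Bin1 to Retreg1 (0.889), 5033421B08Rik and Fgd3. Sorl1 had no close match, its nearest genes being Chst1 (0.706), Dclk1 and Hivep3.

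Across genotypes, 1 of the 10 genes passed the test in microglia-like nuclei, in 1 of 6 contrasts. Sorl1 was lower in active IKKβ than in knockout P301S mice, a call that was lost under several alternatives. Among them were DESeq2, breeding line or age as a covariate, thinning and some single mice left out. Sums per mouse were compared with edgeR's quasi-likelihood test over 8970 genes, all 10 members among them, and calls required a p under 0.05 after Benjamini-Hochberg adjustment together with a log2 fold change over 0.1 in size. In bulk sums of a type, fewer cells that use a gene and less RNA per cell cannot be told apart. Between P301S and non-transgenic mice 0 of 10 members were called, against 0.0446% of all genes (4, all higher), and for knockout against P301S 0 of 10 against 0% (0 genes in edgeR and 0 in DESeq2, though 780 had p under 0.05 before adjustment). Active IKKβ against P301S gave 0 of 10 against 1.49% (89 genes higher and 45 lower). Against non-transgenic mice, active IKKβ gave 0 of 10 against 3.91% and knockout 0 of 10 against 0% (0 genes in edgeR and in DESeq2, with 445 under 0.05 before adjustment). Active IKKβ against knockout gave 1 of 10 against 1.96%, or 0.658% counting lower genes alone. These contrasts share mice and are not independent, and with 2 to 4 mice a group a missed threshold does not show equal levels.

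**Figure D2:**
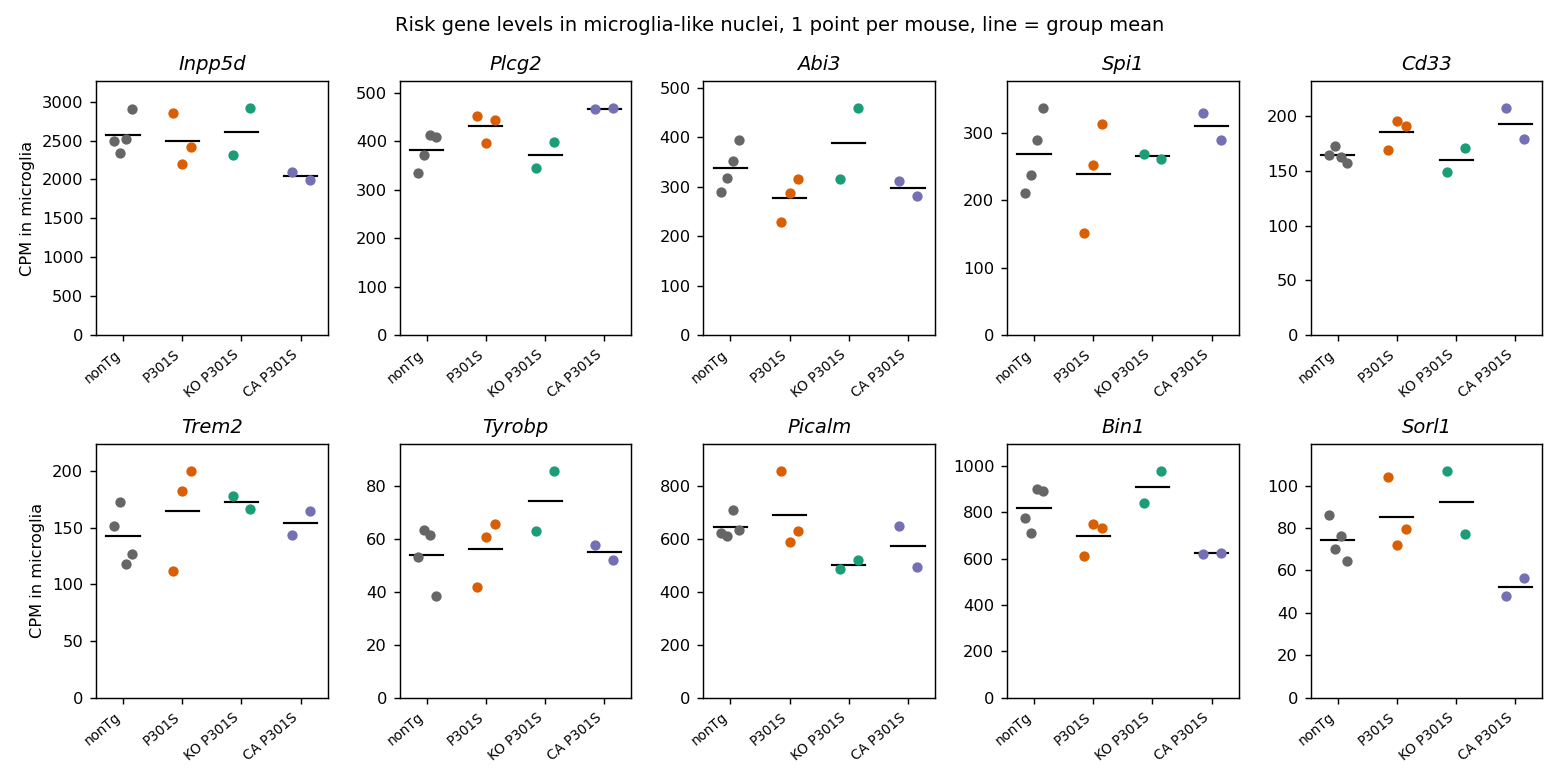
CPM of each gene in microglia-like nuclei (vertical axis, from 0) by genotype group (horizontal axis), with 1 point per mouse and a line at the group mean. The active IKKβ mice are lowest for Sorl1, at 48.0 and 56.7 CPM, the only gene called, in 1 contrast. How often groups of this size stand apart over all genes was not computed, so separate points in a panel are no result by themselves.

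The receptor and its adaptor passed the test in no contrast. Trem2 was at 152, 173, 118 and 127 CPM in the non-transgenic mice, at 112, 182 and 200.3 CPM in the P301S mice, at 178 and 167 CPM in the knockout mice and at 143 and 165 CPM in the active IKKβ mice. The lowest and the highest mouse were both P301S mice. The P301S change was 0.24 ± 0.17 (log2 fold change ± SE), with a 95% interval from -0.10 to 0.59 and an adjusted p of 0.771 in edgeR. It was -0.12 ± 0.20 within the floxed line and 0.69 ± 0.23 within the active IKKβ line, where a single P301S mouse stood against 2. The test of that difference, over 7767 genes in the 7 mice of both groups, gave -0.79 ± 0.30 (floxed minus active line, adjusted p = 0.301 in edgeR), and 0 of 10 members were called against 0.463% of genes. Tyrobp ran from 38.5 to 85.6 CPM over all mice, and its change was 0.12 ± 0.22 with P301S, 0.30 ± 0.24 with the knockout and -0.11 ± 0.23 with active IKKβ. The larger values were those of knockout against non-transgenic mice, at 0.42 ± 0.24 (adjusted p = 0.955 in edgeR), and of active IKKβ against knockout mice, at -0.41 ± 0.24 (adjusted p = 0.486 in edgeR), where 51.9 and 57.8 CPM stood against 63.0 and 85.6 CPM without overlap. The latter value was -0.22 to -0.67 with single mice left out and 0.027 with doublets kept, and the knockout value against P301S mice was -0.11 after thinning. With doublets kept, deep mixed nuclei entered the class, whose Inpp5d was at 927 instead of 2459 CPM, so that setting also reads RNA of other cells.

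The enzymes that act on the TREM2 signal passed in no contrast either. Inpp5d was at 2495, 2344, 2525 and 2901 CPM in the non-transgenic mice, at 2858, 2193 and 2419 CPM in the P301S mice, at 2312 and 2916 CPM in the knockout mice and at 2095 and 1988 CPM in the active IKKβ mice. The active IKKβ mice had the 2 lowest values of the series. The difference from P301S mice was -0.31 ± 0.15 (interval -0.62 to -0.01, adjusted p = 0.556), from non-transgenic mice -0.37 ± 0.14 (adjusted p = 0.195) and from knockout mice -0.38 ± 0.16 (adjusted p = 0.294), all in edgeR and none past the threshold. With doublets kept the 3 values turned to 0.012, 0.081 and 0.057, and the first was -0.19 without P301S mouse 1 and the last -0.20 without knockout mouse 2. Plcg2 was at 466 and 468 CPM in active IKKβ mice, at 397 to 453 CPM in P301S mice, at 345 and 399 CPM in knockout mice and at 334 to 412 CPM in non-transgenic mice. Both active IKKβ values were thus above the other 9. Its change with active IKKβ was 0.09 ± 0.14 (interval -0.19 to 0.38, adjusted p = 0.9755 in edgeR) against P301S mice and 0.31 ± 0.15 (adjusted p = 0.386) against knockout mice.

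Cd33, Abi3 and Spi1, the Siglec, the actin regulator and the lineage factor, also missed the threshold in every contrast. Cd33 had the smallest SD for its mean among the 10, from 149 CPM in a knockout mouse to 207 CPM in an active IKKβ mouse, and its intervals were -0.12 to 0.45 with P301S, -0.56 to 0.10 with the knockout and -0.28 to 0.34 with active IKKβ. Spi1 ran from 151 CPM in P301S mouse 1 to 337 CPM in non-transgenic mouse 4. Its change was -0.14 ± 0.18 with P301S, 0.11 ± 0.21 with the knockout and 0.30 ± 0.20 with active IKKβ. Within the active IKKβ line, where P301S mouse 3 stands alone, the last value was -0.014. Abi3 was at 317 and 459 CPM in knockout mice and at 229, 287 and 317 CPM in P301S mice, so the groups met at one end. The difference of 0.44 ± 0.17 had an adjusted p of 0.485 in edgeR. Active IKKβ mice, at 282 and 312 CPM, were just below the knockout mice (-0.39 ± 0.18, adjusted p = 0.346 in edgeR). Both values rest on knockout mouse 2, without which they were 0.18 and -0.12, against 0.71 and -0.65 without knockout mouse 1, and the second turned to 0.083 with doublets kept.

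**Figure D3:**
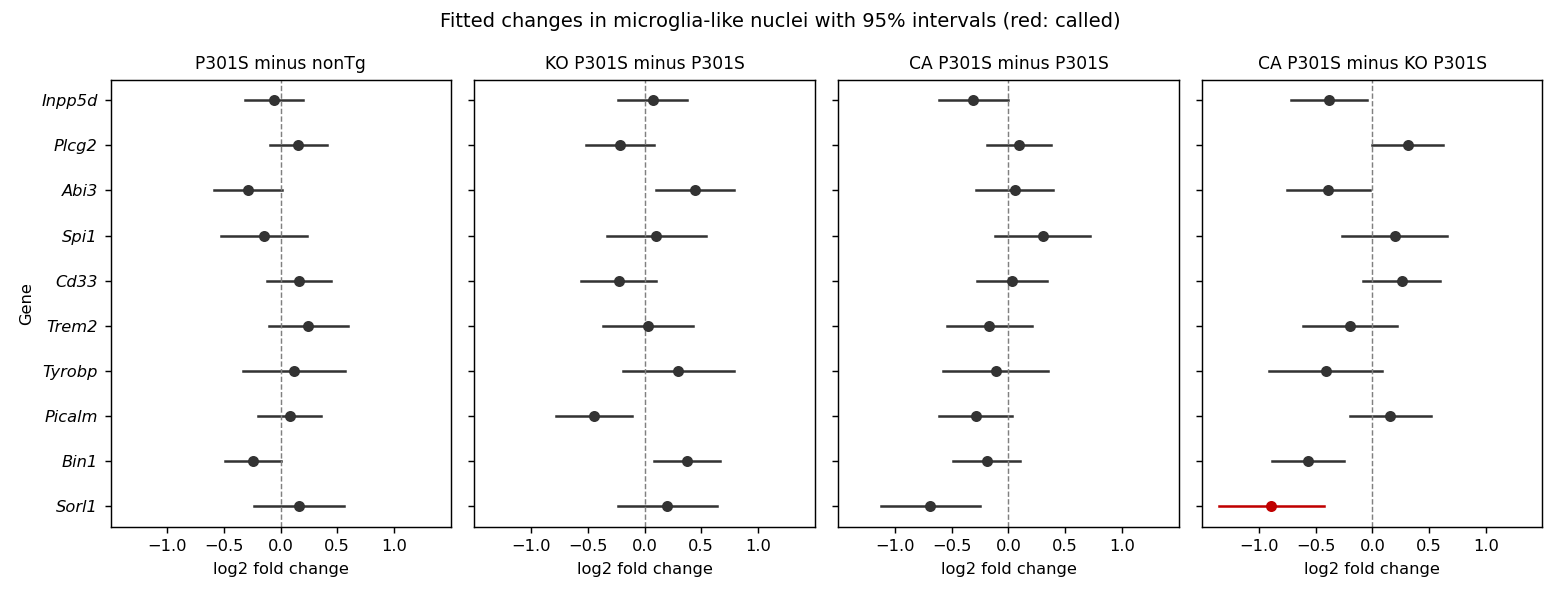
Fitted log2 fold changes (horizontal axis) of the 10 genes (vertical axis) in microglia-like nuclei, with bars for the 95% intervals and 1 panel per contrast. Most intervals cross 0, and the single called value, in red, is Sorl1 in active IKKβ against knockout mice at -0.89.

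Of the genes of membrane traffic, Picalm did not pass the threshold in any contrast. Picalm was at 488 and 520 CPM in knockout mice, at 858, 589 and 632 CPM in P301S mice and at 612 to 712 CPM in non-transgenic mice. Both knockout values lay under all values of these other 2 groups, while active IKKβ mice had 648 and 496 CPM. The change was -0.45 ± 0.16 (interval -0.78 to -0.11, adjusted p = 0.480) against P301S mice and -0.37 ± 0.16 (adjusted p = 0.955) against non-transgenic mice, both in edgeR. Within the floxed line the first of these was -0.52 ± 0.14 (adjusted p = 0.124 in edgeR), and without P301S mouse 1, the one at 858 CPM, it was -0.27. Picalm was also lower in knockout than in P301S mice in each other type, with no call. The change ran from -0.06 ± 0.14 in striatal projection neurons to -0.66 ± 0.29 in pericytes and smooth muscle. All types come from the same mice, so these values are not independent.

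Bin1 was at 775, 713, 900.1 and 892 CPM in non-transgenic mice, at 611, 749 and 733 CPM in P301S mice, at 839 and 979 CPM in knockout mice and at 621 and 625 CPM in active IKKβ mice. Knockout mice lay above both other P301S groups, and active IKKβ mice lay below the knockout and the non-transgenic mice. Active IKKβ against knockout gave -0.57 ± 0.16 (interval -0.89 to -0.25) with an adjusted p of 0.0508 in edgeR, just outside the threshold, and 0.0368 in DESeq2, just inside it. Against non-transgenic mice the active IKKβ value was -0.44 ± 0.14 (adjusted p = 0.0779), and within the active IKKβ line it was -0.54 ± 0.15 with an adjusted p of 0.0337 in edgeR. Knockout against P301S gave 0.38 ± 0.14 (adjusted p = 0.485). Bin1 thus changed its side of the threshold with the choice of tool and mice.

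Sorl1 was at 86.1, 70.4, 76.1 and 64.2 CPM in non-transgenic mice, at 104, 72.2 and 79.7 CPM in P301S mice, at 107 and 77.2 CPM in knockout mice and at 48.0 and 56.7 CPM in active IKKβ mice. The active IKKβ mice were the 2 lowest and overlapped with no group. Active IKKβ against knockout gave -0.89 ± 0.23 (interval -1.35 to -0.43, adjusted p = 0.0331 in edgeR), and both active IKKβ mice were below both knockout mice. Against P301S mice the value was -0.69 ± 0.21 (adjusted p = 0.115), within the active IKKβ line, against P301S mouse 3 alone, -0.61 (adjusted p = 0.574), and against non-transgenic mice -0.52 ± 0.21 (adjusted p = 0.222), all in edgeR and short of the threshold. The call was lost with DESeq2 (adjusted p = 0.135), with breeding line as a covariate (adjusted p = 0.442) and with age as a covariate (-0.53, adjusted p = 0.988), the knockout mice being 8.39 and 9.15 and the active IKKβ mice 10.85 and 9.8 months old. With doublets kept the difference was 0.021, and the one from P301S mice changed sign too. In that setting the class took in RNA of other cells, and its Sorl1 was at 130 instead of 76.5 CPM. The call was also lost without knockout mouse 1 (-0.59, adjusted p = 0.527), without active IKKβ mouse 1 (adjusted p = 0.273) and, narrowly, without active IKKβ mouse 2 (adjusted p = 0.0509).

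Neuronal RNA in these nuclei differed between the groups too. The summed CPM of the 12 neuronal transcripts was 18047 to 21888 in non-transgenic, 14458 to 19639 in P301S, 20259 to 21073 in knockout and 15204 to 18189 in active IKKβ mice, lower in active IKKβ than in knockout mice, and 0 of the 12 were called in that contrast (median log2 fold change -0.33, all 12 lower). 2 of the 12, Snap25 and Lrrtm4, were called lower in active IKKβ than in non-transgenic mice. The 7 astrocyte transcripts summed to 706 to 747 CPM in knockout mice and to 480 to 615 CPM in the rest, and Slc1a2, the glutamate transporter of astrocytes, was called lower in active IKKβ than in knockout mice (-0.74 ± 0.18, adjusted p = 0.0241 in edgeR). Oligodendrocyte transcripts summed to 292 to 538 CPM with 0 called. Border macrophage markers summed to 11.4 to 424 CPM and leukocyte markers to 6.77 to 20.9 CPM. Relative to excitatory neurons of the same mouse, microglial Sorl1 was at 17.9% and 21.3% in active IKKβ mice, under the median of the 12 neuronal transcripts there (24.6% in mouse 1). In knockout mice it was at 59.6% and 36.6%, above it (32.8% and 31.0%). P301S mice had 43.1% to 53.7% and non-transgenic mice 24.7% to 57.2%. These percentages also depend on excitatory Sorl1, which was at 268 and 266 CPM in active IKKβ and at 179 and 211 CPM in knockout mice. The part of neuronal RNA in the Sorl1 difference was not tested.

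**Figure D4:**
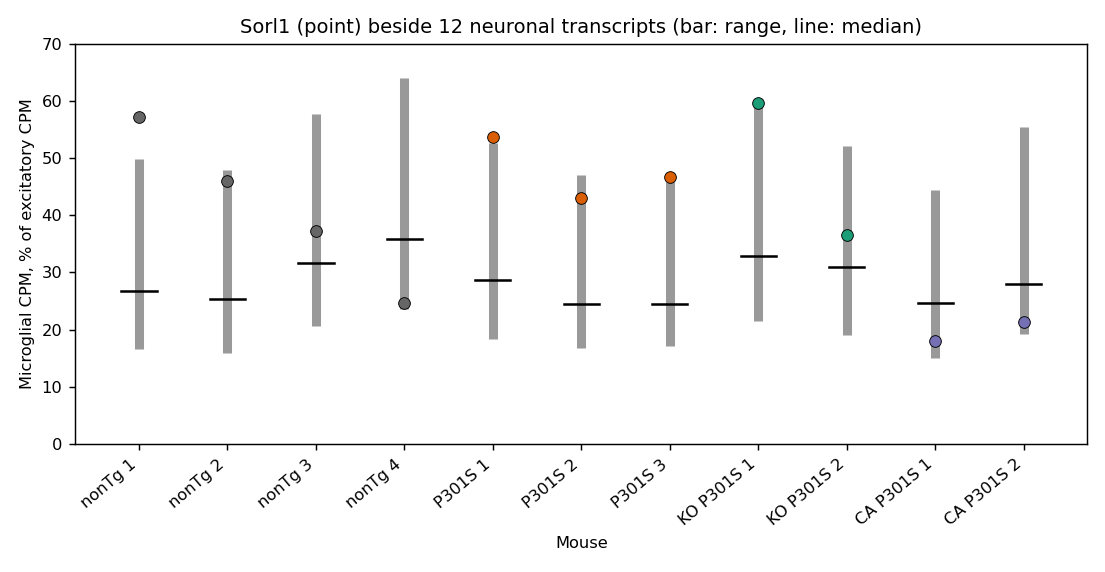
Microglial CPM as a percentage of excitatory neuron CPM (vertical axis) in each mouse (horizontal axis), with a point for Sorl1 and, for 12 neuronal transcripts, a bar for the range and a line for the median. Sorl1 is above the median line in 8 mice and below it in both active IKKβ mice and in non-transgenic mouse 4. These last mice had the highest excitatory Sorl1, by which the point is divided, at 260 to 268 CPM against 151 to 211 CPM in the 8.

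In the other types, no member passed the test. 9 other types were compared over 3 contrasts each, which made 123 tests of the 9 members that passed the filter on low counts in at least 1 type, and 12 had an unadjusted p under 0.05 and 0 an adjusted p under 0.05 (smallest 0.430, edgeR). Few genes of any kind were called there. The share of all genes called in the P301S contrast was 0.0333% in excitatory, 0.0129% in inhibitory and 0.0214% in striatal projection neurons, 0.00775% in oligodendrocytes, 0.00982% in oligodendrocyte precursors and 0% in the rest. In the knockout contrast it was 0.00982% in oligodendrocyte precursors and 0% elsewhere. Active IKKβ gave 0.00555% in excitatory neurons, 0.0155% in oligodendrocytes, 0.0142% in fibroblast-like nuclei and 0% elsewhere.

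In 5 of the 7 other types in which it was tested, Sorl1 was higher in both active IKKβ mice than in all P301S mice, with no call. The types come from the same mice, so they are not separate observations. How often groups of this size stand apart over all genes was not computed, so the count is no result by itself. It was at 266 and 268 CPM in excitatory neurons against 168 to 194 CPM in P301S mice, and the groups did not overlap. That difference was 0.58 ± 0.20 (adjusted p = 0.834 in edgeR). In astrocytes it was at 185 and 203 CPM against 133 to 151 CPM, a difference of 0.46 ± 0.12 (adjusted p = 0.666 in edgeR). In excitatory neurons, however, a non-transgenic mouse of the active IKKβ line had 260 CPM and the other 3 had 151 to 204 CPM, so the 2 active IKKβ values were close to that of a mouse without the transgene. Striatal projection neurons had 131 and 145 against 94.5 to 114 CPM (0.47 ± 0.21), oligodendrocytes 97.5 and 111 against 84.8 to 91.4 CPM (0.26 ± 0.12) and oligodendrocyte precursors 29.5 and 30.3 against 12.4 to 24.1 CPM (0.60 ± 0.30). The highest non-transgenic mouse was above both active IKKβ mice in striatal projection neurons, at 162 CPM, and in oligodendrocyte precursors, at 32.8 CPM. Knockout mice also lay above all P301S mice in astrocytes, at 155 and 166 CPM, and in oligodendrocyte precursors, at 24.3 and 39.9 CPM (0.76 ± 0.30). They overlapped with P301S mice in excitatory neurons, striatal projection neurons and oligodendrocytes. In inhibitory neurons the Sorl1 difference was 0.021 ± 0.13, and in fibroblast-like nuclei it was -0.46 ± 0.44, in the same direction as in microglia. Bin1 in inhibitory neurons was at 166 and 185 CPM in knockout and at 130 to 147 CPM in P301S mice, a difference of 0.40 ± 0.12 (adjusted p = 0.666 in edgeR). Bin1 was higher with the knockout in each of the other types too. That change ran from 0.13 ± 0.10 in oligodendrocytes to 1.24 ± 0.53 in endothelial nuclei, beside 0.38 ± 0.14 in microglia. None of these was called.

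**Figure D5:**
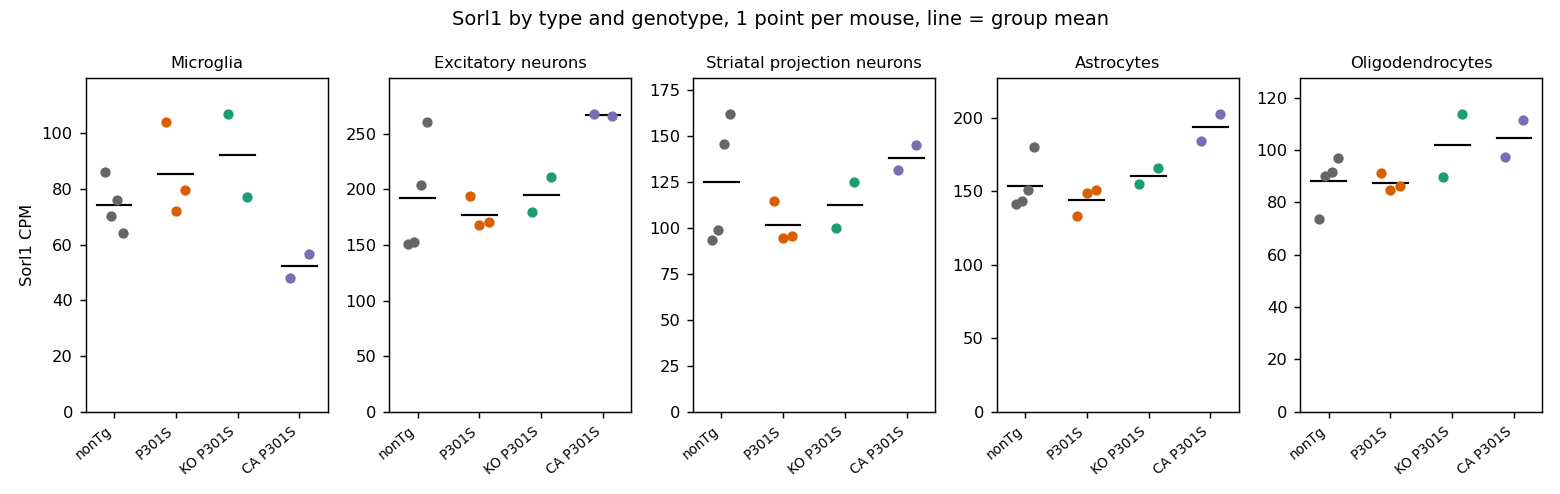
Sorl1 CPM (vertical axis, from 0 in each panel) by genotype group (horizontal axis) in 5 types, with 1 point per mouse and a line at the group mean. Active IKKβ mice are lowest in microglia-like nuclei, at 48.0 and 56.7 CPM, and are at 266 and 268 CPM in excitatory neurons.

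Whether a member changed differently in microglia was tested on the per-mouse difference of log2 CPM between microglia-like nuclei and each other type with limma. Over 27 comparisons and 123 member tests, 10 had an unadjusted p under 0.05 and 0 an adjusted p under 0.05 (smallest 0.381). 6 of the 10 were Sorl1 with active IKKβ, whose change in microglia was lower than that in excitatory neurons by -1.26 ± 0.33, in astrocytes by -1.14 ± 0.29, in oligodendrocyte precursors by -1.28 ± 0.38, in striatal projection neurons by -1.17 ± 0.34, in oligodendrocytes by -0.94 ± 0.29 and in inhibitory neurons by -0.71 ± 0.30. Against fibroblast-like nuclei the value had the other sign, at 0.32 ± 0.44. The 6 differences rest on the same microglial sums, in which the Sorl1 change with active IKKβ changed sign with doublets kept. The share of all genes past the threshold for active IKKβ was 0.0796% against excitatory, 0.0696% against inhibitory and 0.0591% against striatal projection neurons, 0.0474% against astrocytes, 0.0118% against oligodendrocytes, 0.0123% against oligodendrocyte precursors, 0.0644% against pericytes and 0.0632% against fibroblast-like nuclei. It was 0.0118% against striatal projection neurons and against oligodendrocytes in the P301S contrast, 0.0644% against pericytes in the knockout contrast, and 0% in the others.

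The share of microglia-like nuclei with a UMI of a member, at 1000 UMIs per nucleus, was compared as well, but these numbers of mice allow no call. 30 exact two-sided permutation tests over mice gave a smallest p of 0.0571, for Plcg2 with P301S. Because both tails are counted, 0.0571 is also the smallest p possible with 4 mice against 3, and 3 against 2 allow only larger ones. None of the 30 tests could thus have passed 0.05, even before adjustment, and they do not bear on whether a share changed.

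The partners of the 10 genes were read from 7 lists. In the P301S and the knockout contrast 0 genes of any list were called, against 0.0446% and 0% of all genes. With active IKKβ, 0 of 36 tested genes of TREM2-TYROBP signalling, 0 of 25 of phosphoinositide turnover, 0 of 12 Siglecs and inhibitory receptors, 0 of 12 of the WAVE complex and 0 of 13 of PU.1 and its partners were called against P301S mice, where 1.49% of all genes were. 1 of 48 genes of clathrin endocytosis and endosomal sorting fell, Lrp1, a large endocytic receptor that also takes up tau, which was at 210 and 216 CPM in active IKKβ and at 325 to 451 CPM in P301S mice (-0.87 ± 0.17, adjusted p = 0.00469 in edgeR). The median log2 fold change of the 10 members was -0.14 there, beside -0.01 over all genes tested, and it was 0.10 with P301S and 0.09 with the knockout, beside -0.01 in both.

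Among other Alzheimer risk genes, 3 of 47 tested were called with active IKKβ against P301S mice, beside 1.49% of all genes. Tnip1, which encodes an inhibitor of NF-κB activation, rose, at 155 and 164 CPM against 24.6 to 45.6 CPM in P301S mice (2.11 ± 0.23, adjusted p = 9.46e-07 in edgeR). Ank, a membrane exporter of ATP and pyrophosphate, fell, at 92.3 and 123 CPM against 200.3 to 397 CPM (-1.47 ± 0.26), and Cass4, a focal adhesion scaffold, fell, at 8.61 and 12.97 CPM against 26.01 to 47.6 CPM (-1.66 ± 0.35). The groups did not overlap for any of the 3, but these were named because they were called, so that adds no support.

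In active IKKβ against knockout mice 1.96% of all genes were called, the share beside which the lists stand. The number called, 176, ran from 75 to 299 with single mice left out and fell with line or age as a covariate. Whether the list calls hold under those settings was not examined. Lrp1 (-1.19 ± 0.19) and Hip1, a clathrin adaptor (-0.98 ± 0.23), were lower in active IKKβ mice, 2 of 48 of their list. Adam17, the protease that sheds the TREM2 ectodomain, was at 254 and 290 CPM in active IKKβ and at 142 and 169 CPM in knockout mice (0.80 ± 0.17, adjusted p = 0.00691 in edgeR), 1 of 36 of TREM2-TYROBP signalling. Among the 12 tested genes of the list of Siglecs and inhibitory receptors, Cd300lf was higher (2.88 ± 0.56) and Siglech, a microglial Siglec that also signals through DAP12, was lower (-0.60 ± 0.16). 5 of 47 other risk genes were called, Tnip1, Adam17 and the lysosomal protease Ctsh (0.84 ± 0.22) higher and Cass4 and Ank lower. The median of the 10 members was -0.29, beside -0.000569 over all genes.

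Against non-transgenic mice active IKKβ gave calls in 3.91% of all genes, the highest share of the 6 contrasts. In TREM2-TYROBP signalling 3 of 36 were called, all higher: Fgr, a Src-family kinase (3.36 ± 0.52), Lat2, an adaptor (0.94 ± 0.23), and Adam17 (0.71 ± 0.14). Of PU.1 and its partners, Mef2c (-0.67 ± 0.17) and Fli1 (-0.46 ± 0.13), both transcription factors, were called lower, 2 of 13. Plcl2, a phospholipase C relative (-0.46 ± 0.13), was 1 of 25 of phosphoinositide turnover, and Lrp1 (-0.95 ± 0.17) 1 of 48 of the endocytic list. Cd300lf (3.18 ± 0.51) and Siglech (-0.60 ± 0.14) were again the 2 called of 12 genes in the list of Siglecs and inhibitory receptors. Of the other risk genes 6 of 47 were called, Tnip1 (2.63 ± 0.23), Adam17, Ms4a6d (1.32 ± 0.30) and Ctsh (0.75 ± 0.19) higher and Cass4 (-2.21 ± 0.33) and Mef2c lower. Cx3cr1, whose locus carries the Cre in these mice, was lower too (-0.53 ± 0.15, adjusted p = 0.0344 in edgeR) and was called in no other contrast. It was at 663 and 521 CPM in active IKKβ mice and at 693 to 968 CPM in non-transgenic mice. The knockout mice, with the same Cre, had 786 and 716 CPM, and the P301S mice, without Cre, had 702, 637 and 787 CPM. The cause was not tested. 0 of 12 WAVE genes passed in either contrast.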

How the data were processed

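Nuclei from frozen cortex of 11 mice were profiled with a 3′ single-nucleus kit. The authors aligned reads with Cell Ranger 3.1.0 to mm10 with unspliced transcripts included, and the deposited matrices hold raw counts (UMIs per gene and barcode), not normalised. Seurat 3.0 is named in the submitters' processing notes.

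Barcodes were kept if they had 300 to 8000 genes and no more than 5% of UMIs from mitochondria (112539), and 9474 doublets, called at 0.8% per 1000 barcodes, were removed. Nuclei were clustered (scanpy 1.11.5, 2000 variable genes without the 10 members, 15 components, 20 neighbours, Leiden resolution 0.1) and named "like" a type from marker lists, at least 3 of which had to be raised 1.25-fold. Libraries held 72007219 to 93205362 UMIs. Counts were summed per mouse and type and tested with edgeR 4.0.16 (filterByExpr, TMM, 1 term per genotype over 11 mice), and DESeq2 1.42.0 was an alternative. limma 3.58.1 (prior count 2) tested differences between types. Tests were checked on simulated data. Coordinates are from GENCODE M21, which holds 30934 of the 31053 gene identifiers. SDs and the intervals of fold changes cover the spread between mice, and floors cover counting error only.

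All 10 members are named, together with the called genes of each list (at most 8 per list and contrast) and the 3 genes most alike in pattern. The members, lists and tests were chosen with earlier results of these data known. Alternatives covered normalisation, filters, each mouse left out, breeding line, age, doublets, thinning, clustering genes and a replicate block. The study's own test per nucleus was not repeated.

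Numbers in the titles (1 or 2) recur across groups. Correlations of deviations from group means between same-numbered mice ran from -0.08 to 0.13, so the numbers were not taken to pair the mice.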

Additional observations from a re-analysis of the deposited data

Results flagged for a closer look

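Among 56 sets of the 4 non-transgenic mice (a gene in a type with at least 50 UMIs), 1 had a mouse apart from the rest by Dixon's test. Trem2 in oligodendrocytes was at 2.11 CPM in the highest mouse and at 0.651 to 0.823 CPM in the other 3. Chance gives about 1 in 20 such sets, and these levels are at or below the background of microglia markers in that type.

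The 88 nuclei led by T-cell genes entered no comparison and held 109009 UMIs in all. They contained 61 UMIs of Inpp5d, 27 of Picalm, 21 of Sorl1, 17 of Bin1 and 11 of Plcg2, each above the limit of 3 that a count of 0 allows. Abi3 and Trem2 had 5 UMIs each and Cd33 had 4, also above that limit, while Tyrobp had 3 and Spi1 2. The background of free RNA was not computed for these nuclei, so a count above that limit does not place a gene in them. Pooled, Inpp5d stood at 560 CPM, Picalm at 248 CPM, Sorl1 at 193 CPM, Bin1 at 156 CPM and Plcg2 at 101 CPM in these nuclei.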

How the results depend on the processing

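The 60 fold changes of the 10 members (6 contrasts) were refitted under 23 alternatives, which gave 1320 values. 1289 kept their side of the threshold and, apart from 58 that crossed 0 from within 1 SE of it, their direction. 7 lost a call, 9 gained one and 15 changed sign. With doublets kept, deep mixed nuclei entered the microglia-like class and 12 changed sign: with active IKKβ Inpp5d became 0.012, Bin1 0.065, Picalm 0.0061 and Sorl1 0.096, against non-transgenic mice Inpp5d 0.081, Picalm 0.16 and Abi3 0.21, and against knockout mice Inpp5d 0.057, Tyrobp 0.027, Abi3 0.083 and Sorl1 0.021, while Sorl1 in knockout against non-transgenic mice became -0.10. Trem2 with P301S was -0.12 in the floxed line only, Spi1 with active IKKβ -0.014 in the active IKKβ line only and Tyrobp with the knockout -0.11 after thinning. The 7 lost calls were all Sorl1 in active IKKβ against knockout mice (thinned: -0.92, adjusted p = 0.105), and the 9 gained ones all Bin1, in active IKKβ against knockout or non-transgenic mice, among them with no filter (adjusted p = 0.0485). The cause was not tested. The T-cell-led nuclei, kept as an alternative chosen after seeing the data, left Sorl1 at -0.84 (adjusted p = 0.0497).

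Genes called in the P301S, knockout, active IKKβ, active against non-transgenic, knockout against non-transgenic and active against knockout contrasts were 4, 0, 134, 351, 0 and 176. With no filter beyond 1 UMI they were 96, 14, 304, 530, 12 and 340. Leaving out 1 mouse at a time gave 0 to 29, 0 to 2, 57 to 214, 183 to 432, 0 to 4 and 75 to 299, a lone mouse being assumed to vary like the others. With line as a covariate P301S gave 19, active IKKβ 79, active against non-transgenic 208, knockout against non-transgenic 3 and active against knockout 32. In the floxed line only, P301S gave 14, knockout 15 and knockout against non-transgenic 34, and in the active IKKβ line only, where 1 P301S mouse stands alone and is assumed to vary like the rest, P301S gave 197. Age as a covariate gave 30 for active against knockout. Doublets kept gave 0 for P301S, 29 for active IKKβ, 98 for active against non-transgenic and 35 for active against knockout, and thinning gave 10 for P301S and 230 for active against non-transgenic. The replicate block gave 3, 0, 139, 330, 0 and 184, with Sorl1 at -0.86 (adjusted p = 0.0416), and changed no call of a member.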

Other observations

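Finer clusters of neurons differed in the members that were shared between types. Bin1 was at 218 ± 24.9 CPM in an excitatory cluster of 927 nuclei led by Col24a1 and Nr4a2, beside 139 CPM over all excitatory neurons. Sorl1 was at 276 ± 78.1 CPM in an excitatory cluster led by Hmga2 and Slc17a8 and at 173 ± 59.8 CPM in a striatal cluster of 894 nuclei led by Casz1. The microglia-like nuclei formed a single cluster at the finer resolution as well, so no level within subsets of microglia is given.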
